A study of Mus musculus with 2 samples.

Results

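The keratin genes were taken from the gene lists of 2 single-cell libraries by their symbol, Krt followed by a number and at most 1 letter. This gave 51 of 30614 listed genes. The library of inguinal white adipose tissue (iWAT) listed 48 keratins, the library of interscapular brown adipose tissue (iBAT) listed 47, and 44 were in both. Of the 51 keratins, 26 belong to type I and 25 to type II. Both libraries came from cultured stromal vascular cells of pooled tissue from wild-type C57BL/6N mice 8 to 12 weeks old, grown to 80% confluency. According to the labels, every library merged cells left untreated with cells kept for 48 h in 5.5 nM of FGF1, of FGF2 or of FGF8, whereas the published methods name vehicle, FGF1 and FGF2 only. The treatment of a cell was not analysed here, so each depot was 1 sample of pooled cultures. No test between depots or cell sets was possible, and a difference between the depots cannot be told apart from any other difference between the libraries.

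Keratins are the intermediate filament proteins of epithelia. A filament is built from pairs of a type I and a type II keratin, such as Krt18 with Krt8 in simple and luminal epithelium and Krt14 with Krt5 in basal and myoepithelial cells. Desmosomes anchor these filaments between neighbouring cells, and hemidesmosomes anchor them to the basement membrane. Fibroblasts and preadipocytes instead build their filaments mainly from vimentin. The inguinal fat pad of mice surrounds a mammary gland, so its stromal vascular fraction can contain ductal cells. In keratin-free cells of a droplet or microwell library, a low keratin count can come from free RNA of lysed epithelial cells or from a second cell sharing the barcode.

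The iWAT library held 29744 kept cells with a median of 16204 unique molecular identifiers (UMIs, each marking 1 captured molecule), and the iBAT library held 28215 with a median of 27235. The libraries shared 8 cell barcodes. Cells were sorted by counts of marker genes. In iWAT, 6182 cells had an Epcam UMI and fewer than 3 Krt5 UMIs (Epcam cells), 187 cells had 3 or more Krt5 UMIs (Krt5 cells), and 17460 cells had a Pdgfra UMI (Pdgfra cells, the stroma). Epcam encodes an epithelial adhesion molecule and Pdgfra a receptor of mesenchymal progenitors. An Epcam or Krt5 criterion and the Pdgfra criterion were both met by 1815 iWAT cells, of which 9.42% were called doublets, against 2.03% of all iWAT Pdgfra cells. These 1815 cells were kept in both sets unless stated otherwise. In iBAT, 25927 cells were Pdgfra cells, no cell reached 3 Krt5 UMIs, and 108 of the 111 cells with Epcam had a single UMI of it. Of the 8 epithelial markers that the sorting did not use, 2 were detected in those 111 cells, so iBAT gave no epithelial set.

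The labels of the cell sets were checked against markers. The marker lists held Epcam, Krt5 and Pdgfra, which had sorted the cells and were left out of the sums. The 8 remaining epithelial markers, of which Krt8, Krt14 and Krt18 are keratins, summed to 2126 CPM (UMIs per 1000000 UMIs of the cell set) in the Epcam cells, 1854 in the Krt5 cells, 90.1 in the iWAT stroma and 0.584 in the iBAT stroma. The 9 remaining mesenchymal markers summed to 13414 CPM in the Epcam cells, 4216 in the Krt5 cells, 28693 in the iWAT stroma and 13422 in the iBAT stroma. The Epcam set was therefore a mixture. It contained 1797 cells with a single Epcam UMI, whose Pdgfra level was 88.1 CPM, against 18.5 in the 3967 cells with 3 or more Epcam UMIs.

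All keratins together made up 1874 CPM (95% interval 1865 to 1883) in the Epcam cells and 3862 (3784 to 3942) in the Krt5 cells. The sum was 153 (151 to 154) in the iWAT stroma and 32.6 (32.2 to 33.0) in the iBAT stroma. All intervals are exact Poisson intervals for levels and exact binomial (Clopper-Pearson) intervals for shares of cells, at 95%, and cover counting error only. Type I keratins supplied 57.0% of the keratin UMIs in the Epcam cells and 57.9% in the Krt5 cells, but 69.4% in the iWAT stroma and 83.0% in the iBAT stroma. Krt19, a type I keratin, alone supplied 29.0% of the stromal keratin UMIs in iWAT and 51.4% in iBAT. The 1815 cells counted in both sets held 23338 of the 49856 keratin UMIs of the iWAT stroma. Without them its keratin sum was 90.6 CPM (89.5 to 91.7), the type I share 78.4% and the Krt19 share 45.7%. Per kilobase of transcript, the type I share was 67.7%, 65.6%, 77.9% and 89.5% in the same order.

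Krt8 and Krt18, the simple epithelial pair, led the Epcam cells. The level of Krt18 was 641 CPM (636 to 646) in the Epcam cells, 214 (196 to 233) in the Krt5 cells, 26.0 in the iWAT stroma and 0.00941 (7 UMIs) in the iBAT stroma. Krt8 was at 492 (487 to 496), 337 (314 to 361), 21.9 and 0.0417 (31 UMIs) in the same sets. Both were thus at their peak in the Epcam cells and nearly absent from the iBAT stroma. In captured molecules, Krt7 came next in the Epcam cells at 280 CPM, followed by Krt14 at 161, Krt19 at 130 and Krt17 at 117. Division by transcript length changed this order. Krt18 then stood at 446 and Krt8 at 251 CPM per kilobase, followed by Krt14 at 88.5, Krt19 at 82.4, Krt17 at 69.6 and Krt7 at 68.5.

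Krt7, a type II keratin of glandular and ductal epithelium, was at 280 CPM (277 to 284) in the Epcam cells and 293 (272 to 316) in the Krt5 cells, with overlapping intervals. This did not hold for the stricter sets, since Krt7 was at 451 (445 to 457) in the cells with 3 or more Epcam UMIs and 310 (286 to 335) in the Krt5 cells without Pdgfra. Krt80, a type II keratin found in many epithelia, was at 25.1 (24.0 to 26.1) and 32.2 (25.4 to 40.2).

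Krt14 and Krt17 rather than Krt8 and Krt18 led the Krt5 cells. Krt17, a type I keratin of basal and stressed epithelium, was at 1139 CPM (1097 to 1183) in the Krt5 cells and 117 (114 to 119) in the Epcam cells. Krt14, the basal partner of Krt5, was at 824 (788 to 861) and 161 (158 to 163). Krt5 itself was at 933 and 0.839, but its count defined both sets, so that contrast is a description of the rule. The 163 Krt5 cells without Pdgfra had Acta2, a smooth muscle actin, at 6486 CPM and Oxtr, the oxytocin receptor of myoepithelial cells, at 66.4, against 1102 and 4.43 in the cells with 3 or more Epcam UMIs. Scaled to length, the levels in the Krt5 cells were Krt17 at 681, Krt14 at 454, Krt5 at 422, Krt8 at 172 and Krt18 at 149 CPM per kilobase. In captured molecules, Krt5 at 933 CPM stood above Krt14 at 824.

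Among the 11 keratins other than Krt5 with at least 50 UMIs in the compared sets, 2 were 4-fold or more higher in the Krt5 cells than in the Epcam cells, Krt14 (5.13 times) and Krt17 (9.78 times). Over all genes tested, 1.44% were 4-fold or more higher. Krt19 was the 1 keratin of the 11 that was 4-fold or more lower, at 19.2 CPM (14.1 to 25.7) against 130 (128 to 132), beside 2.1% of all genes. The minimum of 50 UMIs was for both sets together. Krt10, Krt16 and Krt19 reached it only through the Epcam cells, with 20, 8 and 46 UMIs in the Krt5 cells. Krt23 (8.38 times), Krt42 (41.5 times) and Krt84 (22.8 times) were higher in the Krt5 cells but missed it. Both counts thus depend on this minimum. With the cells that also had Pdgfra left out, or with 3 Epcam UMIs required, Krt14 was no longer 4-fold higher and Krt18 was 4-fold or more lower in the Krt5 cells. With 3 Epcam UMIs required, Krt20 was also 4-fold or more higher. With all cells, the Krt18 level in the Krt5 cells was 0.334 times (0.306 to 0.364) that of the Epcam cells and missed the 4-fold limit.

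Krt6a and Krt16, which are known for their induction in wounded and hyperproliferative epithelium, were at lower levels than Krt5, Krt14 and Krt17 in the Krt5 cells. Krt6a was at 24.2 CPM (18.4 to 31.3) in the Krt5 cells and 7.27 (6.71 to 7.85) in the Epcam cells. In the Krt5 cells, 62.1% of its 58 UMIs lay in 4 cells. Krt16 was at 3.34 (1.44 to 6.59) and 1.62 (1.37 to 1.91), with overlapping intervals. Among the 29 keratins not named by the rule, which took those with 20 CPM or more in a cell set or above the free RNA limit, the highest level was 5.43 CPM for Krt84 in the Krt5 cells (13 UMIs), and in the stroma of either depot none exceeded 0.104. Krt84 and Krt16 were singled out after their values had been seen. Krt40 was the only keratin with no UMI in any of the 4 sets.

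**Figure D1:**
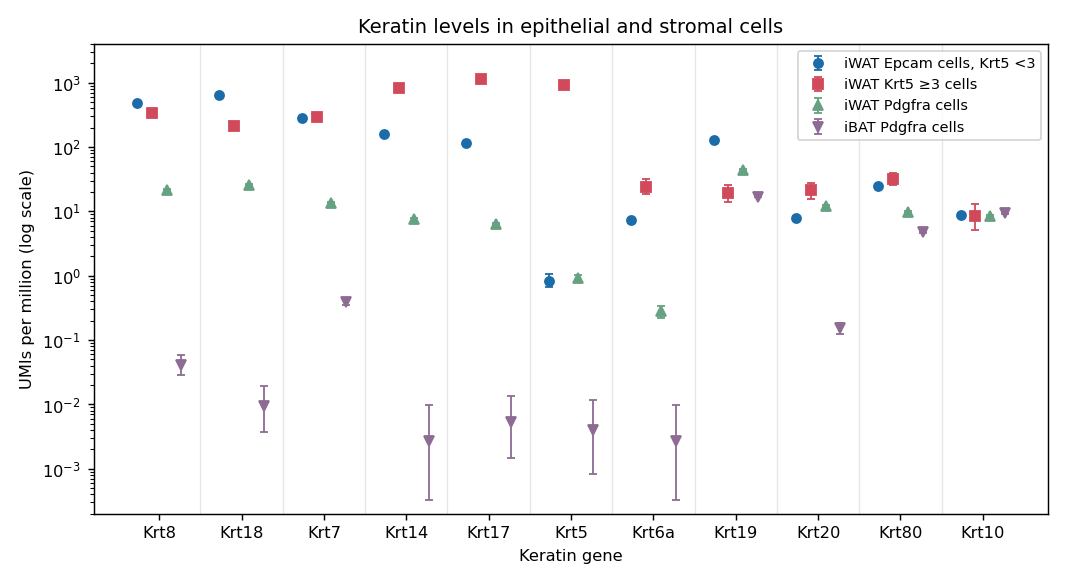
Levels of 11 keratins (CPM, log axis) in iWAT Epcam cells with Krt5 under 3, iWAT Krt5 cells, and the Pdgfra cells of iWAT and iBAT; points are sums over the cells of 1 library and bars are exact Poisson 95% intervals, counting error only. Krt8, Krt18, Krt14, Krt17, Krt5 and Krt6a lie under 0.1 CPM in iBAT stroma, whereas Krt10, Krt19 and Krt80 lie at 4.86 to 16.8.

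Within single barcodes, keratins of luminal and basal epithelium were found together. Of the 3967 cells with 3 or more Epcam UMIs and fewer than 3 Krt5 UMIs, each thinned to 5000 UMIs, 85.5% had a Krt18 UMI (84.4 to 86.6) and 79.0% a Krt8 UMI (77.7 to 80.3). Both were found in 72.5%. Unthinned, the shares were 94.2% and 90.4%. Krt14 was detected in 54.8% (53.2 to 56.3) and in 59.1% of the cells with Krt18, and 13 of the 2173 cells with Krt14 had a Krt5 UMI, a low share that the rule of fewer than 3 Krt5 UMIs in part fixed. For background, the 125 iWAT cells with Ptprc, a pan-leukocyte gene, and with neither Epcam nor Pdgfra showed Krt18 in 9 cells (interval of the share 3.35% to 13.2%) and Krt14 in 2 cells (0.194% to 5.66%) after the same thinning. The median depth before thinning was 10891 UMIs in these cells and 11230 in the cells with 3 or more Epcam UMIs. The Ptprc cells also held markers of other cell types. The mesenchymal markers outside the sorting summed to 4388 CPM in them and the epithelial ones to 35.8.

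The other keratins of the cells with 3 or more Epcam UMIs differed with the Krt14 count before thinning. In the 1704 cells with 3 or more Krt14 UMIs, Krt18 was at 1448 CPM, Krt8 at 1151, Krt7 at 635 and Krt17 at 293. In the 1117 cells without a Krt14 UMI they were at 467, 353, 218 and 48.4. Krt19 ran the other way, at 149 CPM in the cells with Krt14 and 318 in those without. The median depth of the cells with 3 or more Krt14 UMIs was 13107 UMIs and of those without 9273, and its part in the contrast was not tested.

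A Foxa1 UMI set apart cells rich in Krt19. Foxa1 encodes a pioneer transcription factor of hormone-sensing luminal cells. In the 633 cells with Foxa1, Krt19 was at 723 CPM and Krt6a at 59.4, against 112 and 5.03 in the 3334 cells without it. Krt17 was lower with Foxa1 (73.4 against 202), as were Krt14 (186 against 275) and Krt18 (722 against 1064). The median depth was 9307 UMIs with Foxa1 and 11682 without, and its part was not tested. Foxa1 was at 13.5 CPM in the cells with 3 or more Krt14 UMIs and 61.5 in those without, so both splits in part describe the same cells. The Foxa1 split and the Krt14 split were chosen after the data had been seen and describe these cells only.

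The keratins differed in how their level varied across cells ordered by Epcam count. Krt18 was at 3.85 CPM in the 6162 iWAT Pdgfra cells with 3 or more Pdgfra UMIs and no Epcam UMI, 93.1 in cells with 1 Epcam UMI, 427 with 2 and 1017 with 3 or more. Krt8, Krt7, Krt14 and Krt17 took the same order. Krt19 was at 43.0 (41.8 to 44.1) and 42.6 CPM (40.4 to 45.0) with 0 and 1 Epcam UMI, higher beyond counting error at 56.3 (50.7 to 62.3) with 2, and at 195 above that. Krt80 was at 9.34, 10.8, 15.6 and 35.4. Krt10 stayed between 8.39 and 9.27 CPM in all 4 classes. Krt20 was at 10.7, 13.2 and 12.0 and at its lowest, 4.11, in the cells with 3 or more Epcam UMIs. Krt10, Krt19, Krt20 and Krt80 were therefore detected at 8.39 to 43.0 CPM in Pdgfra cells that held no Epcam UMI. In these cells Csn3, a milk protein gene, was at 13.2 CPM and Wfdc18, another epithelial gene, at 4.48, against 746 and 1374 in the cells with 3 or more Epcam UMIs.

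**Figure D2:**
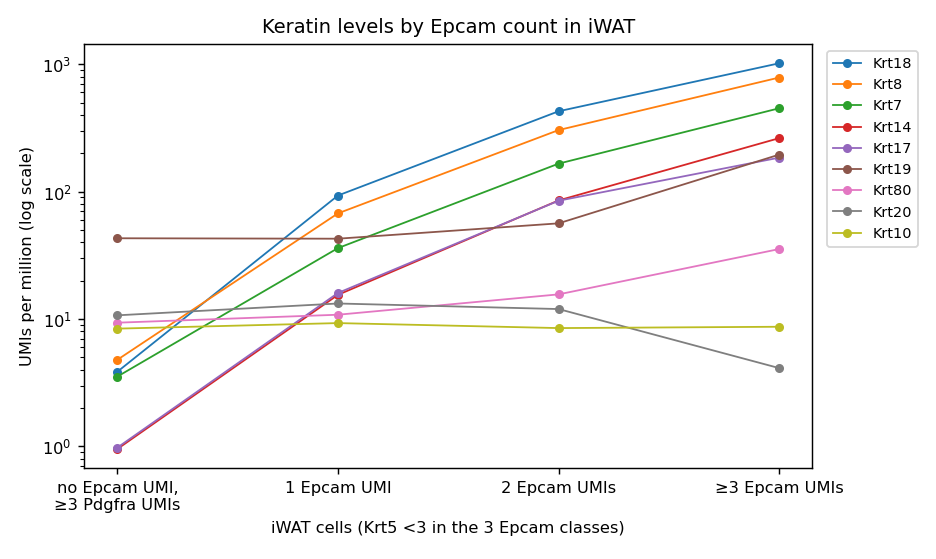
Levels of 9 keratins (CPM, log axis) in iWAT cells without Epcam but with 3 or more Pdgfra UMIs, and in Epcam cells with 1, 2, or 3 or more Epcam UMIs. Lines join the sums of 1 library and carry no replicate error; Krt8, Krt18, Krt7, Krt14 and Krt17 climb steeply from left to right, Krt19 and Krt80 are highest at the right end, Krt10 is level and Krt20 is lowest at the right end.

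Which keratins exceeded the level that epithelial RNA, free or from shared barcodes, would give in the stroma was asked with 16 epithelial genes that are not keratins, such as the claudins Cldn3, Cldn4 and Cldn7, the cadherin Cdh1 and the milk protein gene Csn3. For 15 of them, those with at least 500 UMIs in the 6369 iWAT epithelial cells (Epcam or Krt5 cells), the stromal level was divided by the epithelial level. The ratio in iWAT was lowest for Cldn7 at 3.99%, its median was 4.60%, and it reached 7.31% for Grhl2 and 33.4% for Esrp2, a splicing regulator of epithelial cells. A keratin was called above this free RNA limit if the lower bound of its stromal level exceeded the highest ratio times the upper bound of its epithelial level, with at least 10 stromal UMIs. The limit was thus set by Esrp2. Since Esrp2 was also at 0.731 CPM in the iBAT stroma, where Cldn4 was at 0.0134, the limit of the second highest ratio is given beside it.

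The epithelial keratins showed stromal ratios close to those of the reference genes. Krt18 in the iWAT stroma was at 4.13% of its epithelial level, Krt14 at 4.22%, Krt17 at 4.44%, Krt8 at 4.49% and Krt7 at 4.82%. Krt5, Krt6a and Krt16 were at 3.63%, 3.61% and 4.23%. Of these 8 keratins, 6 lay between the lowest and the second highest reference ratio, Krt5 and Krt6a lay just below the lowest, and none passed the limit. With the Epcam cells alone as the source, from which the rule had removed Krt5, Krt5 passed. The 1815 cells that met both criteria held most of these UMIs, 6931 of the 8488 for Krt18 and 2107 of the 2452 for Krt14. Without these cells the ratio was 0.604% for Krt18, 0.478% for Krt14, 0.705% for Krt17, 0.849% for Krt8 and 1.02% for Krt7. The reference ratios without them ran from 0.367% to 24.2%, with a median of 0.775% and a second highest value of 3.19%. All 5 keratins thus again lay between the lowest and the second highest reference ratio. Krt18 was then at 5.32 CPM in the stroma and Krt14 at 1.18, whereas Krt19 was at 41.4, Krt20 at 12.3, Krt80 at 9.32 and Krt10 at 8.48.

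In the iWAT stroma, 8 of the 18 keratins with 10 or more UMIs exceeded the limit: Krt10, Krt12, Krt13, Krt19, Krt20, Krt23, Krt80 and Krt222. Of all genes with 10 or more stromal UMIs, 83.1% exceeded it. With the second highest ratio Krt28 and Krt88 were added, and with the median ratio Krt7 as well. The same 8 passed with the 1815 shared cells left out. With 3 UMIs of Epcam or Pdgfra required Krt13 did not pass, and with the Krt5 cells as the only source Krt13, Krt23 and Krt222 did not. Only Krt10, Krt19, Krt20 and Krt80 were at 1 CPM or more.

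Krt20, a type I keratin of intestinal and urothelial epithelium, was the clearest of them. Its level was 12.2 CPM (11.9 to 12.6) in the iWAT stroma and 8.32 (7.74 to 8.94) in the epithelial cells, or 147% of the epithelial level, and the limit was 2.98. After thinning of every cell to 5000 UMIs, 5.01% of the iWAT Pdgfra cells had a Krt20 UMI (4.69 to 5.34) and 0 of the 125 Ptprc cells did, which allows a share of up to 2.4% (3 counts of the total) and has an exact upper bound of 2.91%. Unthinned, the shares were 15.7% and 1.60%. In the Krt5 cells Krt20 was at 21.3 CPM (15.9 to 28.0).

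Krt19, a small type I keratin of simple and ductal epithelium, had the highest stromal level. It was at 44.4 CPM (43.6 to 45.1) in the iWAT stroma, or 34.9% of its epithelial level of 127, and passed the limit of 43.2 by a narrow margin. Without doublets, with the other cell filter, or with the Epcam cells alone as the source, Krt19 no longer passed, whereas with the second highest ratio it passed by a wide margin. A Krt19 UMI was found in 16.4% of the thinned Pdgfra cells (15.9 to 17.0) and in 2.4% of the Ptprc cells (0.498 to 6.85).

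Krt80 and Krt10 completed the group. Krt80 was at 9.85 CPM (9.51 to 10.2) in the iWAT stroma, against 25.2 in the epithelial cells and a limit of 8.77. In the iWAT Ptprc cells it was at 1.35 (0.164 to 4.88). Krt10, a type I keratin of the suprabasal epidermis, was at 8.57 (8.26 to 8.90) in the stroma and 8.86 (8.26 to 9.50) in the epithelial cells. Its level in the Ptprc cells, 4.73 (1.90 to 9.75), overlapped with both, and the thinned shares of cells, 4.15% and 3.20%, did as well. The Krt10 level thus did not differ beyond counting error between stroma, epithelium and Ptprc cells of iWAT. Its level in the Ptprc cells rested on 7 UMIs. Those cells also held mesenchymal markers at 4388 CPM, and the part of stromal RNA in their keratin counts was not tested.

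Of the remaining 4, Krt12 had 128 stromal UMIs or 0.392 CPM, which was 222% of its epithelial level, Krt23 had 73 UMIs, Krt222 44 and Krt13 14. Krt13 had 0 UMIs in the iWAT epithelial cells, so that 10 stromal UMIs sufficed to pass and its call was fixed by that minimum. Reads over Krt10, Krt12, Krt19, Krt80 and Krt222 could also stem from genes annotated on the opposite strand, and whether the counting used the strand is not given in the sources used here. Krt20 and Krt23 have no such neighbour and share no 31-base stretch of their last 500 transcript bases with another gene. Krt14 and Krt17 share 17.2% of theirs with each other, Krt16 or Krt42. Larger shares were 67.2% for Krt87 (with Krt85), 32.6% for Krt16 and 20.4% for Krt7, and Krt18 shared 10.4%. Krt24 and Krt76, called above the limit in iBAT below, also have a gene on the opposite strand.

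**Figure D3:**
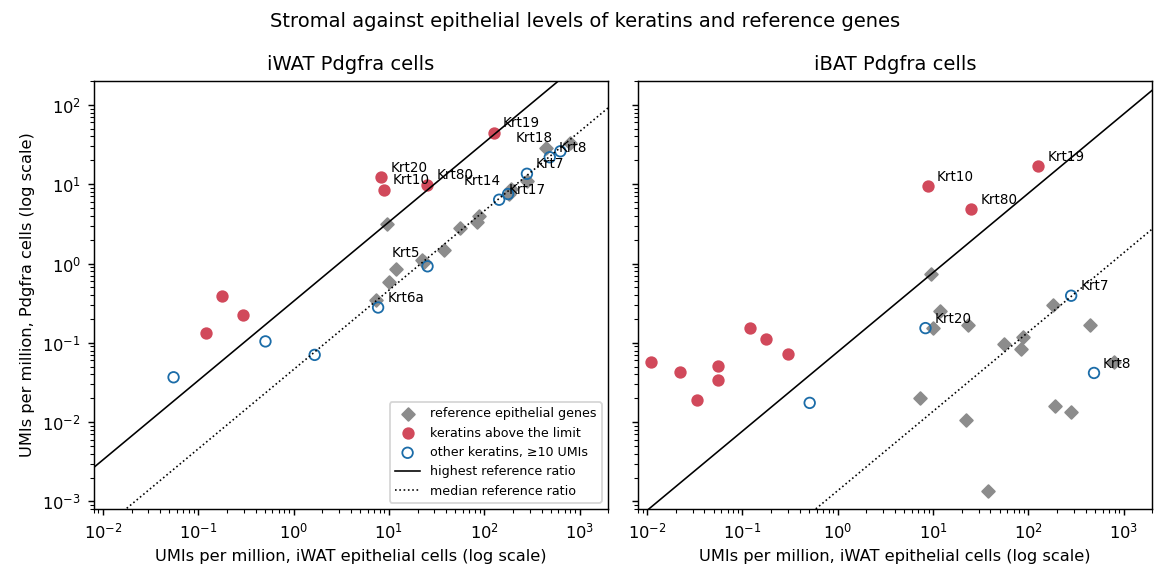
Level in Pdgfra cells of iWAT (left) and iBAT (right) against the level in iWAT epithelial cells (CPM, log axes) for keratins with 10 or more stromal UMIs and at least 1 epithelial UMI, and for 15 reference epithelial genes; the solid line is the highest and the dotted line the median reference ratio. In iWAT the open circles of Krt8, Krt18, Krt7, Krt14, Krt17, Krt5 and Krt6a run with the reference genes along the dotted line, and Krt10, Krt19, Krt20 and Krt80 lie on or above the solid line.

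In the iBAT stroma the reference ratios to iWAT epithelium were lower, with a median of 0.137% and a maximum of 7.70% for Esrp2. Since iBAT gave no epithelial set, this limit borrowed the epithelial levels of another library. It does not measure free epithelial RNA within iBAT, so passing it does not decide the source of the UMIs. There, 14 of 18 keratins with 10 or more UMIs exceeded the limit, beside 96.5% of all genes. They were Krt1, Krt10, Krt12, Krt13, Krt19, Krt23, Krt24, Krt28, Krt36, Krt76, Krt79, Krt80, Krt87 and Krt222. Of these, 11 had between 12 and 118 UMIs over 25927 cells, the most being Krt13 with 118. Krt1, Krt13, Krt24, Krt36 and Krt76 had 0 to 2 UMIs in the iWAT epithelial cells, so that 10 stromal UMIs sufficed to pass. Their calls were thus fixed by that minimum. Only Krt10, Krt19 and Krt80 were at 1 CPM or more. The second highest ratio gave the same 14, and the median ratio added Krt20 and Krt88.

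Krt19 was the main keratin of the iBAT stroma. It was at 16.8 CPM (16.5 to 17.1), against a limit of 9.95 and 0.962 (0.198 to 2.81) in the 140 iBAT Ptprc cells. Krt19 was found in 6.84% of the thinned iBAT Pdgfra cells (6.54 to 7.16) and in 0.714% of the Ptprc cells (0.0181 to 3.92), at median depths of 27838 and 21002 UMIs before thinning. Krt10 was at 9.45 (9.23 to 9.67), above the 4.17 (2.22 to 7.13) of the Ptprc cells, but its thinned shares of cells, 4.51% in the stroma and 2.14% in the Ptprc cells (0.444 to 6.13), overlapped. Krt80 was at 4.86 (4.70 to 5.02), within the interval of the Ptprc cells at 3.53 (1.76 to 6.31). Its thinned share of cells, 2.38%, also lay within the interval of the Ptprc cells (0.444 to 6.13). Krt80 in the iBAT stroma thus did not differ from the Ptprc cells beyond counting error. The iBAT Ptprc cells held mesenchymal markers at 2075 CPM, and the part of stromal RNA in their keratin counts was not tested.

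Between the stromal sets of the depots, 8 of 15 keratins with 50 or more UMIs were 4-fold or more higher in iWAT, beside 2.83% of all genes. They were Krt5, Krt6a, Krt7, Krt8, Krt14, Krt17, Krt18 and Krt20. Without the cells that met both criteria, Krt6a fell under the minimum of 50 UMIs, at a ratio of 22.8 (18 against 2 UMIs). With 3 UMIs of Epcam or Pdgfra required, Krt5 (46.9 times, 30 against 3 UMIs) and Krt6a (51.6 times, 22 against 2 UMIs) did. None of the 15 was 4-fold or more higher in iBAT, beside 3.32% of all genes. The minimum of 50 UMIs was for both sets together. Krt5, Krt6a, Krt8, Krt14, Krt17 and Krt18 reached it only through iWAT, with 31 UMIs or fewer each in the iBAT stroma. Krt13 and Krt222 reached it only through iBAT, while Krt36 (2 against 47 UMIs) and Krt1 (4 against 43) missed it. The count of 8 and the median thus depend on this minimum. The median log2 ratio, iWAT over iBAT, was 5.11 for the keratins tested and -0.05 for all genes tested. The reference epithelial genes had a median log2 ratio of 5.07, with 13 of 15 higher in iWAT by 4-fold or more. Except for Krt20, the 8 keratins were those whose stromal level ran with the epithelial reference genes.

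Among the 8 keratins the ratio ranged from 34.5 for Krt7 to 2794 for Krt14. Krt18 was 2763 times higher in the iWAT stroma (1340 to 6874, 8488 against 7 UMIs), Krt14 2794 times (773 to 23081, 2452 against 2 UMIs), Krt17 1185 times (462 to 4353), Krt8 525 times (370 to 773) and Krt7 34.5 times (30.6 to 38.9). Without the cells that met both criteria the ratio was 563 for Krt18 (1557 against 7 UMIs), 436 for Krt14 (345 against 2 UMIs), 260 for Krt17, 143 for Krt8 and 10.1 for Krt7, while that of Krt20 was 80.8. Krt7 left 292 UMIs in the iBAT stroma, of which 35.6% were in 17 cells with 5 or more.

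Krt20 differed between depots without following the epithelial genes. It was at 12.2 CPM in the iWAT stroma and 0.153 (0.126 to 0.184, 114 UMIs) in the iBAT stroma, a ratio of 79.8 (66.2 to 97.0). In iWAT Pdgfra cells with 3 or more Pdgfra UMIs and no Epcam UMI it was at 10.7, while Krt18 there was at 3.85, Krt14 at 0.952 and Csn3 at 13.2. The other stromal keratins differed less. Krt19 was 2.64 times higher in the iWAT stroma (2.58 to 2.71) and Krt80 2.03 times (1.93 to 2.13), while Krt10 was 0.907 times its iBAT level (0.868 to 0.948). Krt13 was 0.270 times (0.143 to 0.472) its iBAT level, on 14 and 118 UMIs.

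The epithelial keratins in the iWAT stroma were not spread over the cells as depth alone would spread them. This set included the 1815 cells that met both criteria, which held most of the Krt18 and Krt14 UMIs. The spread without them was not examined. Krt18 was found in 10.3% of the Pdgfra cells before thinning, where an even spread by depth gives 37.5%, and the 417 cells with 5 or more Krt18 UMIs (2.39% of the cells) held 76.9% of its UMIs. Krt8 and Krt14 showed the same concentration, with 68.5% and 59.8% of their UMIs in cells with 5 or more. In contrast, Krt10 was found in 14.2% of the cells against 14.7% by depth, and no cell had more than 3 of its UMIs. Krt80 was found in 14.5% against 16.6% and Krt20 in 15.7% against 20.2%. Krt19 lay between, with 39.5% against 54.4% and 27.3% of its UMIs in the 549 cells with 5 or more. In the iBAT stroma, where Krt18 was nearly absent, Krt19 was also uneven, at 26.3% of the cells against 37.5%, and 385 cells with 5 or more held 19.8% of its UMIs.

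**Figure D4:**
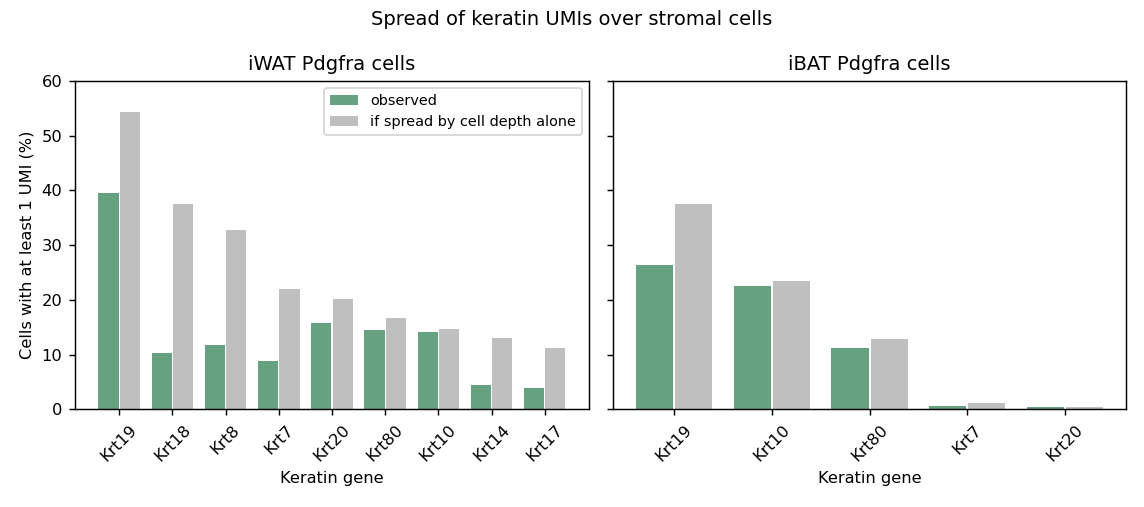
Percent of Pdgfra cells of iWAT (left) and iBAT (right) with at least 1 UMI of a keratin before thinning (green), beside the percent given by the same number of UMIs spread over the cells by depth alone (grey). Pdgfra cells that also met an Epcam or Krt5 criterion are included. Krt18, Krt8, Krt7, Krt14 and Krt17 fall far short of the grey bars in iWAT, Krt10 nearly meets them in both depots, and Krt19 falls short in both.

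Within the stroma, the keratins were compared between the 4365 iWAT (6481 iBAT) Pdgfra cells with the highest share of UMIs in a list of state genes and as many with the lowest. Contractile genes (such as Acta2 and Tagln, which encode smooth muscle proteins) went with Krt20 and Krt19. In iWAT, Krt20 was at 17.2 CPM in the most and 8.50 in the least contractile cells, a ratio of 2.03 (1.84 to 2.23), and Krt19 had a ratio of 1.25 (1.20 to 1.31). In iBAT the ratio was 2.21 for Krt19 (2.09 to 2.33) and 3.05 for Krt20 (1.72 to 5.72, 53 and 16 UMIs). Krt7 had a ratio of 2.03 (1.46 to 2.86, 119 and 54 UMIs) in iBAT. In iWAT the Krt7 ratio was 0.935 with all cells and 1.65 (1.39 to 1.96) without the cells that met both criteria. Epcam was lower in the contractile iWAT cells, with a ratio of 0.365 (0.339 to 0.393). Krt17 was 2.67 times (2.30 to 3.12) and Krt5 4.89 times (3.31 to 7.46, 184 and 30 UMIs) higher in the contractile iWAT cells, unlike Krt14 at 0.879 times. Without the cells that met both criteria, the iWAT ratio was 2.04 (1.85 to 2.26) for Krt20, 1.46 (1.38 to 1.53) for Krt19 and 1.74 (1.32 to 2.32) for Krt17, Krt14 changed side to 1.55 (1.14 to 2.10), and Krt5 had too few UMIs for a ratio.

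Genes of interstitial progenitors (such as Dpp4 and Pi16) also went with Krt19 and Krt20. The ratio for Krt19 was 1.64 (1.56 to 1.72) in iWAT and 3.30 (3.11 to 3.50) in iBAT, and for Krt20 2.33 (2.11 to 2.58) in iWAT. Krt80 had ratios of 1.61 (1.45 to 1.78) in iWAT and 1.30 (1.18 to 1.44) in iBAT. Krt7 was also higher, at 2.85 times (1.98 to 4.18, 132 and 39 UMIs) in iBAT. Without the cells that met both criteria its iWAT ratio was 1.96 (1.65 to 2.32). In iWAT this state also carried more Krt18, at 2.42 times, and more Epcam, at 1.53 times, but without the cells that met both criteria the ratios were 1.68 (1.59 to 1.78) for Krt19, 2.37 (2.14 to 2.64) for Krt20 and 1.45 (1.25 to 1.68) for Krt18. In iBAT the levels of Krt18 and Epcam were 0.00941 and 0.140 CPM over all Pdgfra cells. Adipogenic genes (such as Fabp4 and Lpl) went the opposite way for Krt19 in both depots and for Krt20 in iWAT. Krt18 was at 9.45 CPM in the most and 67.0 in the least adipogenic iWAT cells, a ratio of 0.141 (0.131 to 0.152) beside 0.143 for Epcam, whereas Krt19 had a ratio of 0.845 (0.806 to 0.887) and Krt20 of 0.653 (0.593 to 0.717). Without the cells that met both criteria the Krt18 ratio was 0.575 (0.497 to 0.665). The Krt19 ratio was then 0.931 (0.883 to 0.982), closer to even, and that of Krt20 0.629 (0.569 to 0.695). In iBAT, unlike Krt19, Krt7 was higher in the most adipogenic cells, at 3.15 times (2.16 to 4.68, 122 and 37 UMIs).

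Cycling genes went with Krt80 in both depots, although its iBAT level overlapped with that of the Ptprc cells. In the cells with most and least cycling transcripts, Krt80 was at 11.9 and 8.18 CPM in iWAT (ratio 1.46, 1.32 to 1.61) and at 6.86 and 3.80 in iBAT (ratio 1.81, 1.65 to 1.98). The median depth of these cells was 19746 against 17513 UMIs in iWAT and 30984 against 26676 in iBAT. Krt10 did not move with cycling, interstitial or adipogenic genes in either depot beyond counting error, with ratios of 0.939 to 1.07. It was lower in the contractile iBAT cells at 0.720 times (0.672 to 0.770). With interferon-induced genes (such as Ifit1 and Isg15), Krt20 had a ratio of 0.689 (0.628 to 0.756) and Krt80 of 0.647 (0.583 to 0.718) in iWAT, whereas the iBAT ratio of Krt80 was 0.972 (0.896 to 1.05). In iBAT the 14228 cells with no UMI of this list formed the low set.

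Mesothelial genes were examined because mesothelium expresses Krt8, Krt18 and Krt19. In iWAT, 309 Pdgfra cells had a UMI of Msln, Upk3b, Upk1b, Lrrn4 or Wt1, and their Krt18 level was 191 CPM against 22.9 in the other Pdgfra cells, but Epcam was likewise at 105 against 20.8. Upk3b, a defining mesothelial marker, had 0 UMIs in the iWAT stroma. In iBAT, where Upk1b supplied 2.64 of the 2.98 CPM of these 5 genes, 986 such cells had Krt19 at 30.1 CPM against 16.2, a ratio of 1.86 (1.74 to 1.99), with Krt7 at 0.194 and Epcam at 0.0972.

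**Figure D5:**
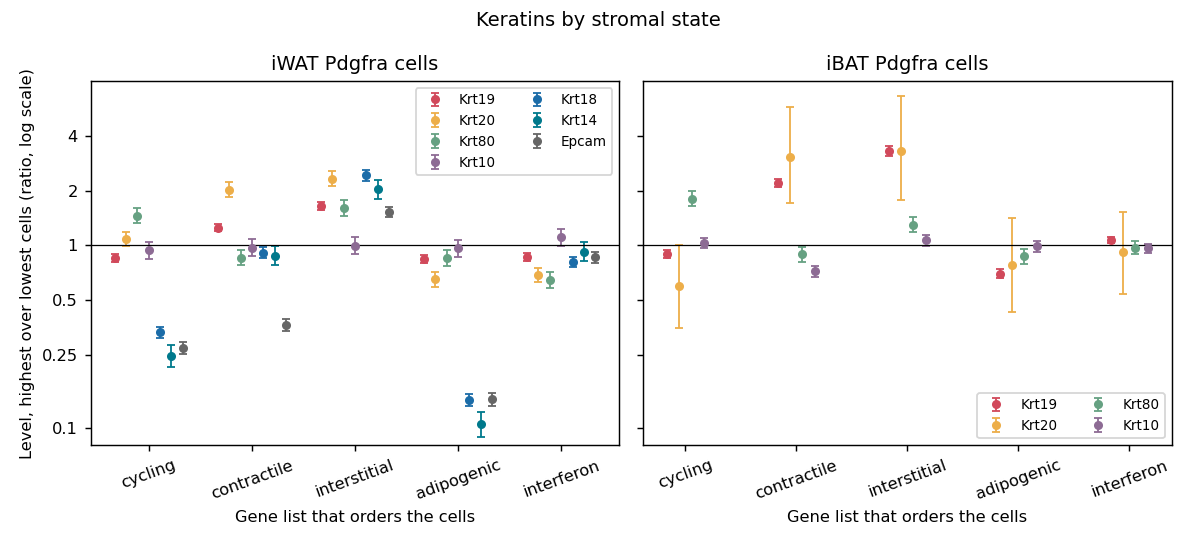
Ratio of levels between Pdgfra cells with the highest and the lowest share of UMIs in 5 lists of state genes (log axis; points are ratios of summed counts of 1 library, bars exact 95% intervals for counting error only). In iWAT (left) Krt18 and Krt14 move with Epcam for cycling and adipogenic genes, while Krt20 and Krt19 are higher with contractile and interstitial genes in both depots; Krt80 is higher with cycling genes in both.

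Cells with 3 or more UMIs of a stromal keratin were compared with Pdgfra cells that had none, a comparison chosen after the data had been seen. Genes at 50 CPM or more over both groups together were ranked by the ratio, as a description only. The cells with 3 or more UMIs were deeper, at medians of 25292 against 17498 UMIs for Krt20 in iWAT, 21481 against 17007 for Krt19 in iWAT and 34817 against 26781 for Krt19 in iBAT, and the part of depth was not tested. The 267 iWAT cells with 3 or more Krt20 UMIs had lower epithelial levels than the 14717 without. Epcam was at 4.96 CPM against 24.5, Krt18 at 7.74 against 27.8 and Krt14 at 1.17 against 8.08. Krt19 was higher at 88.9 against 41.1. The leading genes were Acta1 (467 against 96.6), a skeletal muscle actin, and Mmp10 (218 against 65.6), a secreted metalloproteinase, followed by the thrombomodulin gene Thbd (161 against 69.0). Pdgfra was at 107 against 149 and the collagen gene Col1a1 at 11138 against 17844, while Dcn was at 257 against 218.

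The 1662 iWAT cells with 3 or more Krt19 UMIs were mixed. They were led by Adm, the adrenomedullin gene, at 142 CPM against 57.7, and Acta1 at 238 against 101. Sprr1a, a precursor of the cornified envelope that lay under 50 CPM over both groups, was at 136 against 20.2, and the cells also held more Krt18 (64.0 against 17.5) and Epcam (54.1 against 16.6). In iBAT, the 1311 such cells had Epcam at 0.109 against 0.137 and no Krt18 UMI. They were led by Ankrd1 (256 against 90.0), a mechanosensitive gene, and Cavin2 (254 against 117), a gene of caveolae, and Upk1b was at 10.4 against 1.72. The other 4 mesothelial genes were at or below 0.330 CPM in both groups, with Wt1 at 0.239 against 0.330 and no Upk3b or Lrrn4 UMI in the cells with Krt19. Krt7 was at 1.65 against 0.235 and Krt20 at 0.522 against 0.0853. Their doublet share was 5.19%, against 3.86% of all iBAT Pdgfra cells. Ankrd1 and Adm were among the 10 leading genes of the cells with Krt19 in both depots.

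Keratins and genes that work with keratin filaments were compared between the cell sets. Of 16 keratins tested, 9 were 4-fold or more higher in the iWAT epithelial cells than in the iWAT stroma, beside 4.69% of all genes, and 0 were 4-fold or more lower, beside 0.137%. The 9 were Krt5, Krt6a, Krt7, Krt8, Krt14, Krt16, Krt17, Krt18 and Krt88, of which Krt5 had also served to choose epithelial cells. The 1815 cells that met both criteria were in both of these sets, which limits how far a gene could be lower. Without them, Krt12 was 4-fold or more lower, beside 3.21% of all genes. With 3 UMIs of Epcam or Pdgfra required, Krt12 was again lower, beside 5.61%. Of 11 desmosome genes tested with all cells, 10 were 4-fold or more higher in the epithelial cells. Jup, encoding plakoglobin, was at 275 CPM in the Epcam cells, 443 in the Krt5 cells and 24.0 in the iBAT stroma, and Pkp1, encoding a plakophilin, at 142, 196 and 1.06. Of 8 hemidesmosome genes, 6 exceeded their stromal level by 4-fold or more in the epithelial cells. In the Krt5 cells 5 exceeded the level of the Epcam cells to this extent, beside 1.44% of all genes. Itga6, an integrin of basal cells, was at 399 CPM in the Krt5 cells and 62.4 in the Epcam cells.

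Of 12 epithelial transcription factors, 1 was 4-fold or more higher in the Krt5 cells than in the Epcam cells, Trp63, the master regulator of basal cells, at 66.9 against 1.29 CPM. Ehf and Foxa1 were 4-fold or more lower. Over all genes tested, 1.44% were higher and 2.1% lower to this extent. Of the 8 other intermediate filament genes, none was 4-fold apart between the iWAT epithelial cells and the stroma, which had cells in common, or between the stromal sets. Vim, which encodes vimentin, was at 2754 CPM in the Epcam cells, 1897 in the Krt5 cells, 3682 in the iWAT stroma and 4069 in the iBAT stroma. Synm, which encodes synemin, was the 1 gene of this list that was 4-fold or more higher in the Krt5 cells, at 25.1 against 0.623.

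The keratins of both types lie in a cluster each. In the GENCODE M39 annotation of GRCm39, 25 of the 51 were on chromosome 11 and 26 on chromosome 15, where Krt18 is the 1 type I gene, beside Krt8. Krt8 spans chr15:101905133-101912917 on the minus strand and Krt18 chr15:101936615-101940462 on the plus strand. Krt20 at chr11:99319227-99328985 lies near Krt10 at chr11:99276072-99280195 and Krt12 at chr11:99306492-99313086, and Krt19 lies at chr11:100031636-100039491. Krt14, at chr11:100093988-100098490, and Krt17, at chr11:100147040-100151974, lie in the same cluster on the same strand as Krt19 and Krt20, yet differ from them in the stroma.

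RefSeq promoters, from 250 bases before to 50 after the start, were found for 34 of the 51 keratins, with 35 starts (build GRCm38.p6). Krt8, Krt18 and Krt20 are shown because the first pair had a common pattern over the cell sets and Krt20 the most different one. Capitals mark matches to TATAAA on either strand.

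Krt8: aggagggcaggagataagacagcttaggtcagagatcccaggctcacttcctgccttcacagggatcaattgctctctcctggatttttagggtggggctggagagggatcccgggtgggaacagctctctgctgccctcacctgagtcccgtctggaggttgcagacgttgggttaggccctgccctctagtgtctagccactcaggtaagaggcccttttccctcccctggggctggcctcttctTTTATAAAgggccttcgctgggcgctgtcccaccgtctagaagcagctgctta
Krt18: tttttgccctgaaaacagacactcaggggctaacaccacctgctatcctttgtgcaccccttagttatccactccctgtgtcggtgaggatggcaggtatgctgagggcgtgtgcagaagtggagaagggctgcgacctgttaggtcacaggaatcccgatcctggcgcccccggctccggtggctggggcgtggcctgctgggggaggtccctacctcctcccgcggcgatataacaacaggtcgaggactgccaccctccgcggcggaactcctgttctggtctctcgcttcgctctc
Krt20: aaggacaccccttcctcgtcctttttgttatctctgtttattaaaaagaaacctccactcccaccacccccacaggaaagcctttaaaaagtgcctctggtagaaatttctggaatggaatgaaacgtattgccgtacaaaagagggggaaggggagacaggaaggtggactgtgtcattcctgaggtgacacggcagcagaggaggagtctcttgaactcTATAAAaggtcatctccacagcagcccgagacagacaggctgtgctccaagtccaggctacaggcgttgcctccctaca

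The windows lie on chr15:102004293-102004592 (minus strand), chr15:102027966-102028265 (plus strand) and chr11:99438104-99438403 (minus strand) of GRCm38.p6. A TATAAA match was found in 17 of the 35 keratin promoters and in 13.6% of 32851 promoters of the same length. Krt20 has 1 match, which begins 29 bases before the start. Krt8 has 2 overlapping matches, 1 on each strand, that begin 3 bases and 1 base before the start, and Krt18 has none in this window. The GC box GGGCGG was found in 2 of the 35, against 35.7% of all promoters, and CCAAT in 15, against 37.4%. The AP-1 element TGACTCA, searched with TGAGTCA as its other strand, was found in 1 of the 35 and in 5.20% of all promoters.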

How the data were processed

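The cultures of each depot were captured on a BD Rhapsody cartridge as 1 whole-transcriptome library, and the authors aligned the reads on a commercial cloud pipeline. The submitters' processing notes name the build mm39 and Seurat 5.0.0. The deposited matrices hold UMI counts per gene and cell, not normalized. How multimapping reads were treated is not given in the sources used here.

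Cells with more than 200 and fewer than 7500 genes and under 30% mitochondrial UMIs were kept. Scrublet (scanpy 1.11.5, expected doublet rate 0.08) marked doublets, which were removed in an alternative only. Counts were summed over cells and divided by all UMIs of the set (Python 3.11.15, numpy 2.4.6, scipy 1.17.1, pandas 2.3.3, matplotlib 3.10.9). Ratios needed 50 UMIs in both sums together and had a fixed threshold of 4-fold. Before shares were compared, each cell was thinned to 5000 UMIs. Keratins at 20 CPM or more in a set, or above the free RNA limit, were named with full values. The keratins and the gene lists were chosen with earlier results of these data known. With 1 sample per depot there was no test. Tags that assign cells to treatments were not used here.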

Additional observations from a re-analysis of the deposited data

How the results depend on the processing

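No paired analysis was possible because each depot was 1 library and no result came from a test. The iWAT count above the free RNA limit was 5 with the Krt5 cells as the only source, where 1 reference gene had enough UMIs. Leaving out cells of both kinds made Krt12 the 1 keratin higher in stroma, beside 3.21% of all genes. It gave 2 keratins lower in the Krt5 cells (Krt18 and Krt19), beside 2.11% of all genes. The keratin sums moved to 2606 CPM (Epcam cells), 4075 (Krt5 cells) and 90.6 (iWAT stroma). Requiring 3 UMIs of Epcam or Pdgfra gave the same 1 and 2, beside 5.61% and 2.17% of all genes, with sums of 2963 and 102. Krt19 then replaced Krt88 among the 9 higher in epithelium (6.67% of all genes). Krt20 replaced Krt14 among the 3 higher in the Krt5 cells, Krt5 included (1.29% of all genes). Without doublets the sums were 1925, 4101 and 143. The other cell filter (500 genes, 15% mitochondrial UMIs) gave sums of 1891 and 151. It made Krt36 the 1 keratin higher in iBAT, beside 3.29% of all genes. With no minimum on UMIs, 17 of 48 keratins were higher in epithelium (5.15% of all genes), 9 of 37 higher and 1 lower in the Krt5 cells (4.40% and 1.22%), and 12 of 49 higher in iWAT and 3 in iBAT (3.60% and 3.38%). Thinned to 2500 UMIs and not thinned, the share of cells was 53.1% and 72.1% for Krt18 in the Epcam cells and 3.60% and 10.3% in the iWAT stroma. For Krt19 it was 20.7% and 49.2%, then 9.28% and 39.5%, and for Krt20 1.67% and 8.62%, then 2.49% and 15.7%. Per kilobase, type I made up 67.7%, 65.6%, 77.9% and 89.5%. Of 352 single keratin levels under alternatives, 67 moved beyond counting error. Of 154 keratin ratios with 50 UMIs or more, 4 crossed 1, namely Krt7 in the Krt5 over the Epcam cells (1.05, but 0.787 without cells of both kinds and 0.651 with 3 UMIs required) and, with 3 UMIs required, Krt80 there (1.29 to 0.910) and Krt222 between depots (0.887 to 1.18); apart from the minimum on UMIs and the thinning, the cause was not tested. The second highest reference ratio was added after the data had been seen. The Ptprc sets were limited by their 125 and 140 cells and by the mesenchymal markers found in them.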
